A study of Mus musculus with 3 samples.

Results

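Matrix and antiprotease transcripts were followed as 8 genes out of 32285 in the count tables: Slpi, Timp1 and Timp2, which encode inhibitors of proteases, Mmp12 and Mmp14, which encode proteases, and Fn1, Vcan and Tgfbi, which encode matrix proteins. They were chosen by symbol because earlier work on these counts had shown Slpi, Timp1 and Fn1 above vehicle in both groups in which p38 was targeted. Their ratios to vehicle in monocytes are therefore a description and not evidence of a response. For Fn1 that did not hold in monocytes, where it stood at 1102 CPM (counts of the gene per 1000000 UMIs of the cells summed) in vehicle and 1089 CPM in the inhibitor group.

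The data are 3 single-cell RNA libraries of live CD45+ cells sorted from primary 4T1-luc mammary tumors, grown in the mammary fat pad of female BALB/c mice that were 6 to 8 weeks old at implantation. Veh mice carried p38a wildtype 4T1-luc cells and received DPBS, p38i mice carried the same cells and received the p38 inhibitor LY2228820 at 30 mg/kg by daily gavage for 10 days from day 4, and p38KO mice carried the p38a-KO-H9 line, in which p38a (Mapk14) had been inactivated by CRISPR-Cas9, with no treatment given in the labels. All tumors were taken at day 14, and the tumors of 3 mice were pooled into each library. The leukocytes of p38KO tumors came from wildtype hosts, the knockout line is 1 clone, and each group is 1 library, so no test between groups was possible and every interval below covers counting error only. Mapk14 in monocytes stood at 36.6, 50.3 and 45.8 CPM in Veh, p38i and p38KO, and since these are host cells the value does not check the knockout.

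Filters of at least 1500 UMIs (unique molecular identifiers, each standing for 1 captured transcript), at least 300 genes and at most 20% mitochondrial counts left 3820, 4793 and 3859 cells in Veh, p38i and p38KO, and libraries shared at most 5 kept barcodes. Clusters formed without the 8 genes gave 574, 1028 and 462 monocytes, marked by Ly6c2 and Ccr2, with median depths of 8557, 7398.5 and 8063 UMIs. Counts of each gene were summed over the monocytes of a library and divided by all their UMIs. T cells, which were marked by Cd3e, served as background. The 7 fixed granulocyte markers summed to 8053, 11072 and 5004 CPM in the monocytes of Veh, p38i and p38KO, none of them at 0. The 7 monocyte markers summed to 6602, 5550 and 7631 CPM in the same cells. In T cells the granulocyte markers summed to 3073, 6968 and 3396 CPM. In monocytes 8 epithelial markers of tumor cells summed to 5.53, 4.92 and 10.5 CPM, with Krt19 and Cldn4 at 0 in all 3 libraries. The part of granulocyte and epithelial transcripts in the values below was not tested, except where a value is given.

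Monocytes that enter a tumor meet a matrix that they both build and cut. Secretory leukocyte peptidase inhibitor, the product of Slpi, blocks some of the serine proteases that neutrophils release, and TIMP proteins block matrix metalloproteinases. Fibronectin, versican and the TGF-beta induced protein are secreted into the matrix, where cells bind them through integrins and CD44.

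Slpi had 1715, 5674 and 2331 counts in the monocytes of Veh, p38i and p38KO. Its level was 327, 681 and 584 CPM, with 95% Poisson intervals of 312 to 343, 663 to 699 and 560.5 to 608. Both p38 libraries lay above Veh, the pattern for which Slpi was chosen. In p38i Slpi was 2.08-fold higher, a log2 ratio of 1.06 (0.98 to 1.14). In p38KO it was 1.79-fold higher, a log2 ratio of 0.84 (0.75 to 0.93). These intervals take each count as independent and leave out the spread between cells. The gene was not spread evenly over monocytes. The 1% of monocytes with the most Slpi held 23.6%, 42.5% and 45.2% of its counts in Veh, p38i and p38KO, and 50% of the counts sat in 23 of 574, 19 of 1028 and 8 of 462 cells. The highest single cell had 90, 688 and 469 counts.

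Because of these cells, the excess was examined without them. Without the top 1% of each library the log2 ratio of Slpi was 0.64 in p38i and 0.36 in p38KO. In p38KO it was 0.26 without monocytes that held more granulocyte than monocyte marker counts, which made up 17.6%, 25.2% and 14.3% of the monocytes of Veh, p38i and p38KO. In p38i it was 1.17 without them. Thinned to 1500 UMIs per cell, 19.9%, 28.02% and 22.3% of monocytes had a Slpi UMI (exact 95% binomial intervals 16.7 to 23.4%, 25.3 to 30.9% and 18.6 to 26.4%), against 1.31%, 2.58% and 1.68% of T cells, whose median depths before thinning were 5101.5, 3893.5 and 4741 UMIs. Before thinning, the shares in monocytes were 45.3%, 51.1% and 48.7%. The p38i share lay above Veh, and the p38KO share overlapped it. In both p38 libraries much of the level thus sat in few cells, and beyond them the share of cells with Slpi was higher in p38i.

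Slpi and Timp1 were the 2 genes past a log2 ratio of 0.5 in both p38 groups, and the sequence upstream of each start is shown for that reason. The windows are the 250 bases before the RefSeq start in GRCm38.p6, read 5′ to 3′ on the gene's strand, chr2:164356508-164356757 on the minus strand for Slpi and chrX:20869916-20870165 on the plus strand for Timp1. Capitals mark ACGTG, the core of the hypoxia response element, on either strand, and TGACG, the core of the cyclic AMP response element bound by CREB and ATF proteins.
Slpi: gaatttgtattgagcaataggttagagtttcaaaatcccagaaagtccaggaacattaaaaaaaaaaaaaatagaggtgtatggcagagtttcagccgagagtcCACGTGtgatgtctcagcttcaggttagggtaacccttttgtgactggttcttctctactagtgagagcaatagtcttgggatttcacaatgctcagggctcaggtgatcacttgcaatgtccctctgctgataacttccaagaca
Timp1: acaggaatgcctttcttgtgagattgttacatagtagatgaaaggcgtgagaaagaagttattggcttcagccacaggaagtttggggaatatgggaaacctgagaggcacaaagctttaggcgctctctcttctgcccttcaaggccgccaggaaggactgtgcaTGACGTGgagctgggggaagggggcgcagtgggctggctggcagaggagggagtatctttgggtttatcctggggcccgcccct
In Slpi the capitals lie 146 bases before the start, where ACGTG occurs on both strands in overlapping letters. In Timp1, TGACG at 84 bases and ACGTG at 82 bases before the start overlap. Among the 7 of the 8 genes with a window, 3 had ACGTG (the other gene was Mmp14, 48 bases before its start), against 16.6% of all 32851 windows of 250 bases. TGACG was in 1 of the 7 and in 17.8% of all windows, GAGGAA of the PU.1 site was in 1 (Mmp12) and in 23.3%, and TGANTCA of AP-1 was in none of the 7 and in 6.75%. For Mmp12 this is the window nearest to the GENCODE start, and that of another RefSeq start of Mmp12, 2993 bases from the GENCODE start, held TGANTCA 44 bases before it. The RefSeq start of Slpi lies 32588 bases from the GENCODE start of the gene. These are matches of letters and not binding sites, and the search letters were chosen with results known. Fn1 is named only.

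Timp1, whose protein inhibits most secreted metalloproteinases, had 246, 615 and 476 counts in the monocytes of Veh, p38i and p38KO, or 46.9, 73.8 and 119 CPM (95% intervals 41.2 to 53.1, 68.1 to 79.9 and 109 to 130.4). Both p38 libraries lay above Veh, the pattern for which Timp1 was chosen. The p38KO library was highest, but 2 of its 462 monocytes held 132 of the 476 counts. Against Veh, the log2 ratio was 0.65 (0.44 to 0.87) for p38i, and for p38KO it was 1.35 (1.12 to 1.57). Few cells carried it: 3.83%, 4.28% and 6.71% of monocytes had a Timp1 UMI after thinning and 9.93%, 11.9% and 14.5% before, and the top 1% held 45.5%, 53.98% and 44.7% of its counts. Without that 1% the ratio was 0.42 in p38i and 1.37 in p38KO. The exact 95% binomial intervals of the thinned shares overlapped among the 3 libraries, so no order was read from the shares. A gate cell by cell took kept cells of any cluster with Ly6c2 or Ccr2 and without C1qa, Csf3r, Cxcr2 or Cd3e. Over that other set of cells the ratio was -0.11 in p38i and 0.072 in p38KO. Background was low, with 0.293, 1.24 and 10.2 CPM in T cells, although all 31 counts in p38KO T cells came from 1 cell.

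Timp2, which inhibits metalloproteinases and also takes part in the activation of MMP2 by MMP14, stood at 22.9, 31.1 and 37.8 CPM in monocytes (120, 259 and 151 counts). The p38i library gave a log2 ratio of 0.44 (0.12 to 0.77), just short of 0.5, and the p38KO library 0.73 (0.37 to 1.08). The level in monocytes was below that in T cells of the same library, 38.7, 57.1 and 78.7 CPM, and the thinned share of 3.48%, 4.47% and 4.33% was below the T-cell share of 6.16%, 6.53% and 10.4%. T cells too were higher in Timp2 in both groups, with log2 ratios of 0.56 (0.23 to 0.896) and 1.02 (0.71 to 1.34). Because Timp2 in monocytes did not exceed the T-cell level, no order between the libraries was read from it. Macrophages had more Timp2, 184, 181 and 274 CPM.

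**Figure D1:**
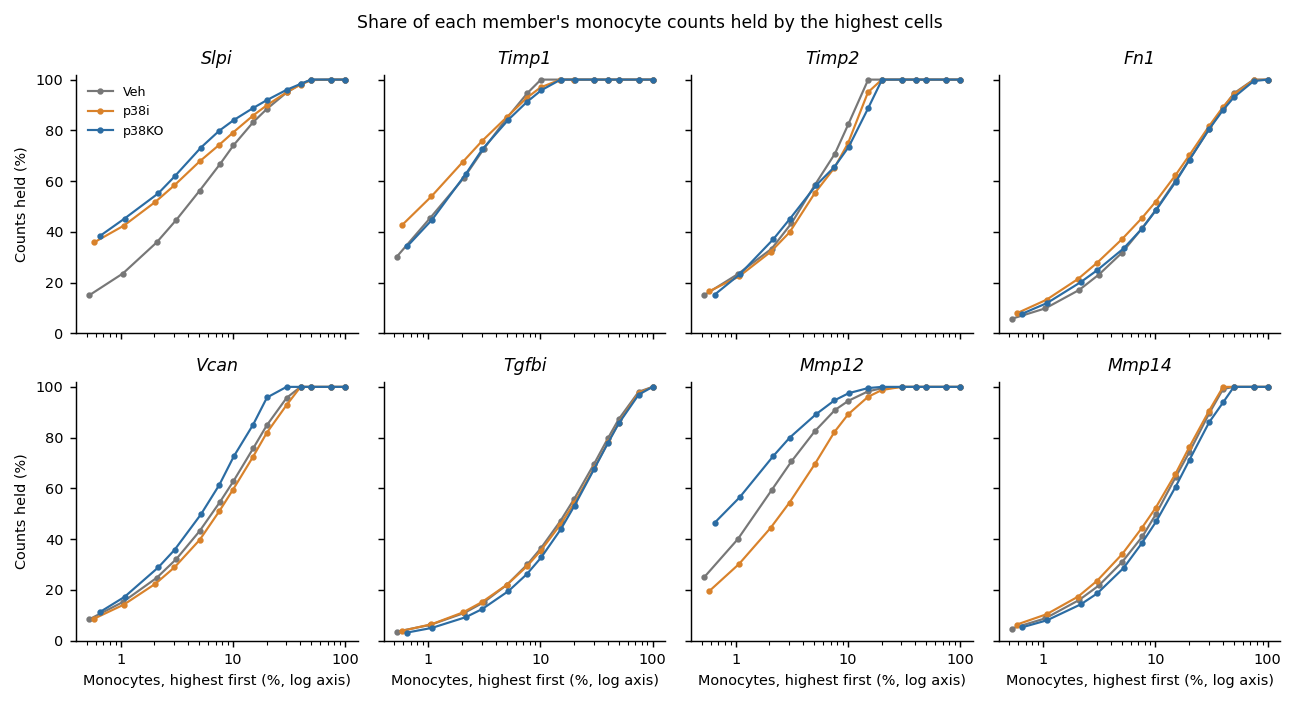
For each gene, the y axis gives the percent of its monocyte counts held by the highest cells and the x axis the percent of monocytes, ordered from the highest (log axis), with 1 line per library. For Slpi the top 1% of cells held 23.6% of counts in Veh against 42.5% in p38i and 45.2% in p38KO, whereas Tgfbi and Fn1 were spread over many cells in all 3 libraries.

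Mmp12, the macrophage elastase, stood at 462, 620.2 and 808 CPM in monocytes (95% intervals 444 to 481, 603 to 637 and 780.5 to 837). Relative to Veh the log2 ratio was 0.42 (0.35 to 0.49) for p38i, and 0.81 (0.73 to 0.88) for p38KO. The p38i ratio ranged from 0.23 to 1.26 over 15 alternatives and passed 0.5 in 7 of them, among them the one without the highest cell of each library (0.51). In p38KO 1 cell held 991 of the 3226 counts, against 245 of 2425 in the highest Veh cell. Without the highest cell of each library the p38KO ratio was 0.43, and under the gate cell by cell it was -1.04, the opposite direction. The thinned share of monocytes with a Mmp12 UMI was 13.6%, 18.00% and 12.1%, lower in p38KO than in Veh while the CPM was higher, so no order was read for p38KO. In p38i the share (15.7 to 20.5%) lay above the Veh share with intervals that overlapped.

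Mmp14, the membrane-bound metalloproteinase that cleaves collagen and activates MMP2, stood at 113, 116 and 163 CPM (95% intervals 104 to 123, 109 to 123 and 151 to 176). Veh and p38i overlapped and p38KO lay above both. For p38i the log2 ratio was 0.032 (-0.12 to 0.18), and for p38KO 0.53 (0.36 to 0.69), just past 0.5. Thinned shares were 13.8%, 13.6% and 19.05% against 0.5597%, 0.304% and 0.372% in T cells, and the top 1% of cells held 8.75%, 10.4% and 7.99% of counts, fewer than for Slpi or Timp1. The p38KO ratio stayed past 0.5 in 9 of 15 alternatives, and without that 1% it was 0.55. Its lowest value was 0.14, under the gate cell by cell without a cell filter.

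Fn1, encoding fibronectin, had 5780, 9076 and 5789 counts in monocytes. Veh and p38i stood at 1102 and 1089 CPM, a log2 ratio of -0.017 (-0.064 to 0.031), and p38KO was higher at 1450.2 CPM, a log2 ratio of 0.396 (0.34 to 0.45) that stayed below 0.5. The share of monocytes with a Fn1 UMI after thinning followed the level, 51.2%, 52.1% and 64.5% (95% intervals 47.05 to 55.4%, 49.04 to 55.2% and 59.9 to 68.9%), against 0.5597%, 1.82% and 2.42% of T cells. Under the gate cell by cell the p38KO ratio turned to -0.44.

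Vcan, encoding the chondroitin sulfate proteoglycan versican, was the 1 gene of the 8 below -0.5 in monocytes. It stood at 128, 129 and 53.9 CPM (95% intervals 119 to 138, 121 to 136 and 46.9 to 61.6). The log2 ratio of p38i to Veh had an interval of -0.14 to 0.15, while p38KO was at 0.4204 of the Veh level, a log2 ratio of -1.25 (-1.48 to -1.03). The thinned share was likewise lowest in p38KO, 15.5%, 13.7% and 5.84% (95% intervals 12.6 to 18.7%, 11.7 to 15.97% and 3.89 to 8.39%), against 0.187%, 0.304% and 0.186% of T cells. Counts were spread, with 15.2%, 14.2% and 17.2% in the top 1% of cells. The p38KO ratio stayed at or below -1.05 under all 15 alternatives of counting, gating and clustering that were run.

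Tgfbi, encoding a matrix protein that integrins bind and that TGF-beta induces, stood at 1251, 1185 and 1489 CPM, with log2 ratios of -0.078 (-0.12 to -0.033) and 0.25 (0.201 to 0.302). Neither reached 0.5. It was the most evenly spread of the 8, found in 65.9%, 68.7% and 72.9% of monocytes after thinning, with 6.17%, 6.42% and 4.996% of counts in the top 1%.

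Counted by size alone, with at least 20 counts over both libraries, 2 of the 8 genes were past a log2 ratio of 0.5 above Veh in p38i monocytes (Slpi and Timp1), where 8.09% of 10420 genes were, and none were below -0.5, where 5.24% were. In p38KO monocytes 5 were above (Slpi, Timp1, Timp2, Mmp12 and Mmp14), where 12.1% of 9929 genes were, and 1 was below (Vcan), where 4.69% were. Since the choice used these contrasts, nothing is read from the counts. The median log2 ratio of the 8 was 0.23 in p38i and 0.63 in p38KO, beside 0.031 and 0.072 over all genes tested. The p38i and p38KO ratios share the Veh library.

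**Figure D2:**
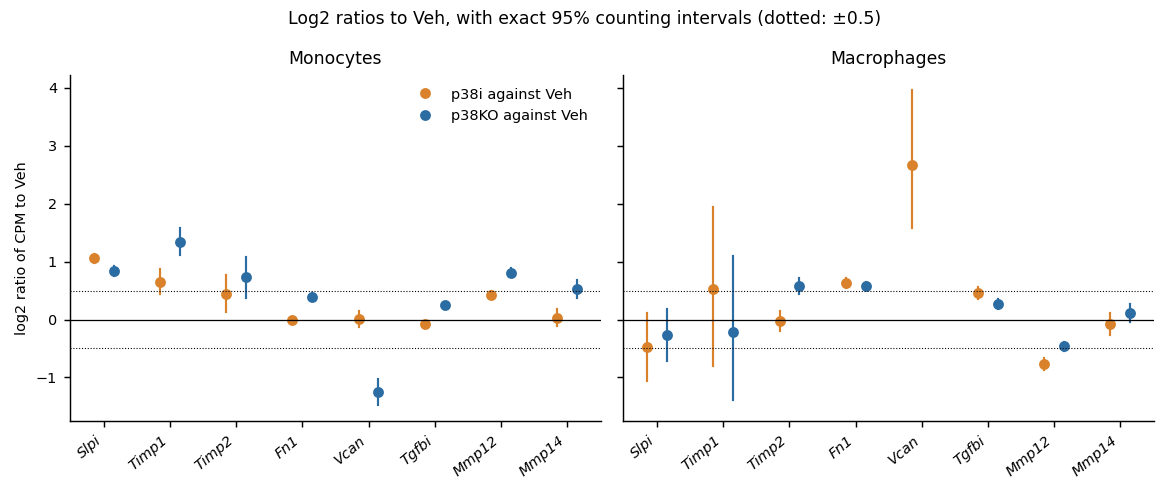
Points give the log2 ratio of each gene's CPM to Veh (y axis) for p38i and p38KO, with exact 95% counting intervals, in monocytes on the left and macrophages on the right. A gene is drawn where both libraries together held at least 20 counts of it. In monocytes Slpi and Timp1 lie above the upper dotted line at 0.5 in both groups and Vcan lies below the lower one in p38KO alone.

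Monocytes formed 3 clusters, called here by a leading gene: an Arg1 cluster, whose top genes also held Sdc1, Inhba and Vcan, an Ace cluster, whose top genes held Ass1, Ly6i and Fn1, and a Chil3 cluster, whose top genes held Plac8 and Ccr2. None of the 7 monocyte markers was among the top 10 genes of the Arg1 cluster, although 5 of the 7 were at least 2-fold above all other cells in it and seen in at least 10% of its cells. At Leiden resolution 2, a cluster led by Mmp12 and Arg1 (143, 239 and 99 cells in Veh, p38i and p38KO) stayed unnamed. Macrophage was its best match. Another cluster there, led by Ace (40, 47 and 28 cells), stayed unnamed too. That alternative left both out of the monocytes. The clusters made up 54.4%, 25.1% and 20.6% of Veh monocytes, 55.3%, 21.8% and 23.0% in p38i, and 48.7%, 29.9% and 21.4% in p38KO.

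Slpi varied between the clusters. In the Arg1 cluster Slpi stood at 403, 1071 and 738 CPM, with p38i highest and a log2 ratio of 1.41 (1.32 to 1.505). In p38i 13 of 568 Arg1 cells held 2526 of the 4579 counts, against 148 of 1132 in 2 of 312 Veh cells, and in p38KO 1 Arg1 cell held 469 of 1332. Without the Arg1 cluster the p38i ratio over monocytes was 0.17. In the Ace cluster it stood at 86.00, 129 and 634 CPM, with p38KO apart from the others at a log2 ratio of 2.88 (2.59 to 3.19). There 4 of 138 p38KO cells held 585 of 807 counts, and no Ace cell of the other libraries reached 50 counts. The Ace cluster of p38KO also held more macrophage marker counts, 3983, 2765 and 6970.0 CPM in Veh, p38i and p38KO over 8 markers, and more epithelial marker CPM, 8.84, 7.81 and 21.2 CPM. None of those 4 cells had a count of the 8 epithelial markers, and 2 of the 4 held more granulocyte than monocyte marker counts. The part of the macrophage markers was not tested. The thinned share of Ace cells with a Slpi UMI was 11.1%, 9.82% and 16.7%, with intervals of 6.49 to 17.4%, 6.26 to 14.5% and 10.9 to 23.95%. In the Chil3 cluster Slpi stood at 399, 397 and 210.0 CPM, level between Veh and p38i and lower in p38KO at a log2 ratio of -0.93 (-1.17 to -0.68). In Veh 2 of 118 Chil3 cells held 166 of the 476 counts. The thinned share of Chil3 cells with a Slpi UMI was 22.9%, 38.1% and 26.3%. That order differed from the order of the CPM, so none was read in that cluster.

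Timp1 in the Arg1 cluster was 75.9, 86.3 and 210.5 CPM, with Veh and p38i overlapping and p38KO above them. In the Chil3 cluster it was 10.1, 80.98 and 15.3 CPM, and the p38i value rested on 2 of 236 cells with 133 of its 173 counts. Ace cells had 21, 73 and 82 counts, or 16.9, 38.01 and 64.5 CPM. The p38i log2 ratio of Timp1 was 1.17 (0.45 to 1.95) in the Ace cluster and 3.01 (2.17 to 3.99) in the Chil3 cluster. In the Arg1 cluster, which held 369 of the 615 p38i counts, it was 0.19 (-0.061 to 0.44). How much each cluster added to the p38i excess over all monocytes was not tested.

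Vcan was lower in p38KO in the Arg1 cluster, 151, 162 and 80.3 CPM at a log2 ratio of -0.91 (-1.196 to -0.64), and in the Chil3 cluster, 184, 128 and 53.6 CPM at -1.78 (-2.25 to -1.32). In the Ace cluster, where it was scarce, it stood at 22.5, 54.1 and 16.5 CPM, and the p38KO interval of -1.34 to 0.42 held 0. Fn1 was higher in p38KO in all 3 clusters, with log2 ratios of 0.19 (0.11 to 0.27), 0.57 (0.47 to 0.66) and 0.43 (0.31 to 0.56) in the Arg1, Ace and Chil3 clusters, while p38i was lower in the Arg1 cluster at -0.15 (-0.22 to -0.085) and higher in the Ace cluster at 0.27 (0.18 to 0.36). The metalloproteinases were nearly absent from Chil3 cells, with Mmp12 at 10.9, 2.81 and 2.19 CPM and Mmp14 at 8.38, 11.2 and 15.3 CPM. In the Ace cluster Mmp12 was 219, 591 and 672 CPM, and its thinned share of 8.33%, 21.4% and 10.1% was highest in p38i with an interval above that of Veh. Cells with at least 50 Mmp12 counts there were 2 of 144 in Veh, 6 of 224 in p38i and 4 of 138 in p38KO. They held 144 of 273, 547 of 1136 and 596 of 855 counts. Mmp14 was higher in p38KO in the Arg1 cluster, 132, 139.6 and 214 CPM at a log2 ratio of 0.702 (0.49 to 0.91), where the thinned share was 14.4%, 18.5% and 26.7%. In the Ace cluster it stood at 172, 179 and 197 CPM, and the p38KO interval of -0.077 to 0.46 held 0.

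**Figure D3:**
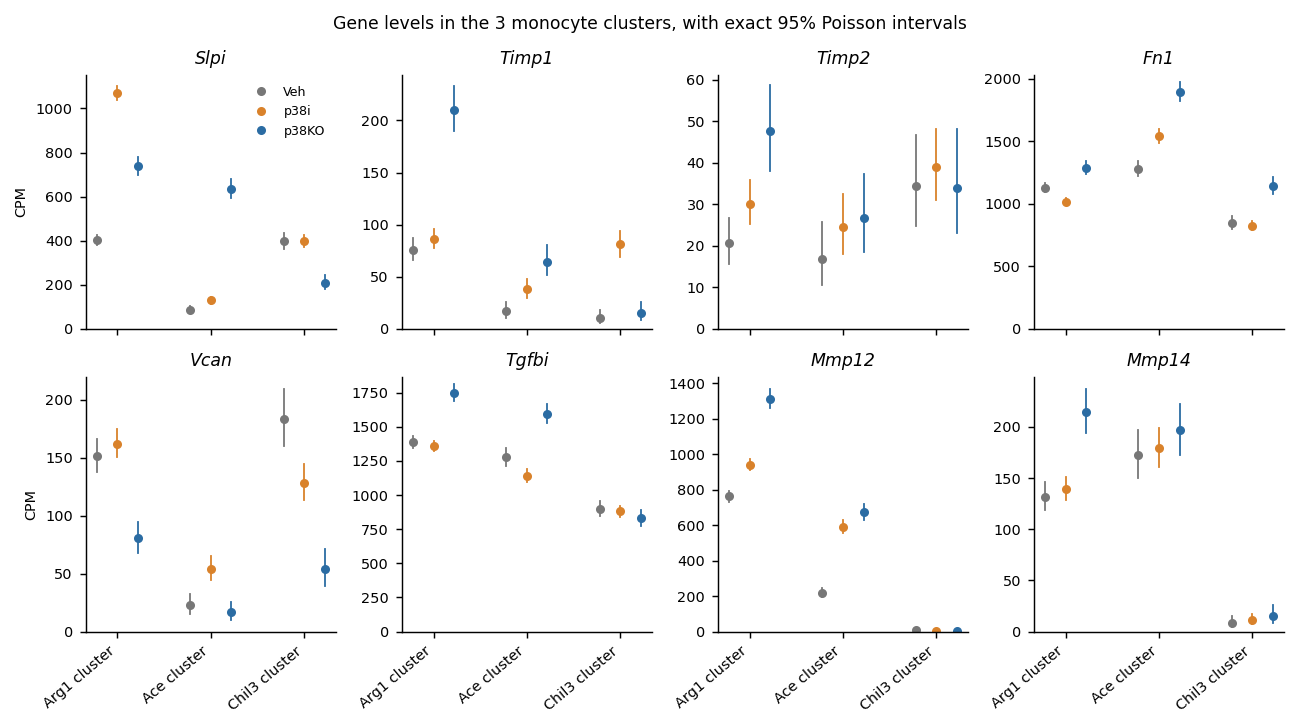
Each panel gives 1 gene's CPM (y axis, from 0) in the Arg1, Ace and Chil3 monocyte clusters, with a point for each library and exact 95% Poisson intervals. Slpi is highest in p38i in the Arg1 cluster (1071 CPM) and in p38KO in the Ace cluster (634 CPM), and Vcan is lowest in p38KO in each cluster.

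**Figure D4:**
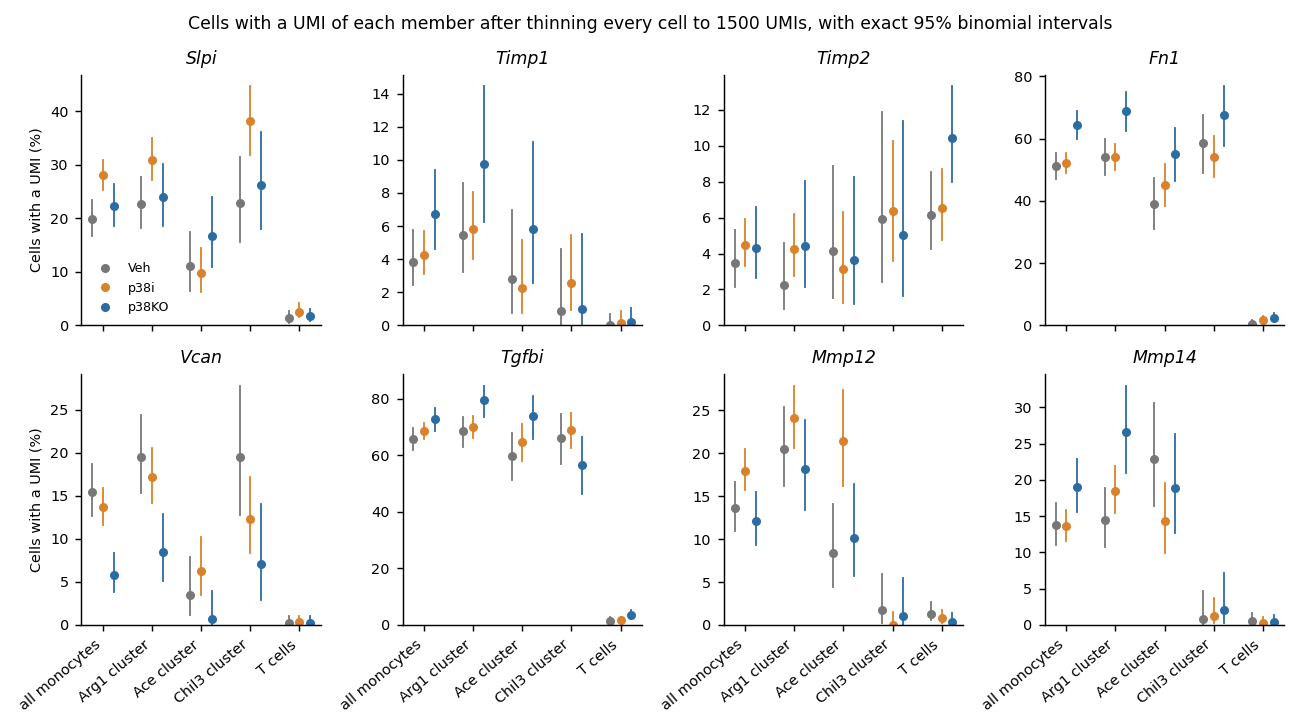
The y axis gives the percent of cells with a UMI of each gene after every cell was thinned to 1500 UMIs, for all monocytes, the 3 monocyte clusters and T cells, with exact 95% binomial intervals. Vcan is lower in p38KO (5.84%) than in Veh (15.5%), and Mmp12 in p38KO (12.1%) does not exceed Veh (13.6%) although its CPM does.

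Macrophages, marked by C1qa, numbered 142, 166 and 524 cells. The 8 epithelial markers of tumor cells summed to 4.86, 8.41 and 96.3 CPM in the macrophages of Veh, p38i and p38KO. Their part in the macrophage values was not tested. Fn1 stood there at 637, 983 and 954 CPM and was higher in both p38 groups, with a log2 ratio of 0.63 (0.54 to 0.71) for p38i, one of 0.58 (0.51 to 0.65) for p38KO, and thinned shares of 38.7%, 51.2% and 51.7%. Mmp12 went the other way, at 682, 399 and 495 CPM, with log2 ratios of -0.77 (-0.88 to -0.67) and -0.46 (-0.54 to -0.39). Tgfbi was 489.9, 673 and 589 CPM. Slpi was at 19.8, 14.2 and 16.4 CPM, at the T-cell level of 23.1, 19.1 and 10.9 CPM, so near background. Timp1 had 9, 13 and 22 counts, or 2.92, 4.20 and 2.52 CPM, and its p38i interval of -0.81 to 1.93 held 0. Vcan had 8, 51 and 3 counts. Of the genes with enough counts, 3 of 8 were above 0.5 in p38i (Timp1, Fn1 and Vcan), where 7.86% of 9751 genes were, and 1 was below -0.5 (Mmp12), where 9.18% were. In p38KO 2 of 7 were above (Timp2 and Fn1), where 16.4% of 10816 genes were, and none below, where 5.26% were. The medians of the members were 0.22 in p38i and 0.11 in p38KO, beside -0.0026 and 0.060 over all genes.

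Granulocytes, marked by Csf3r and Cxcr2, were the other main source of Slpi, at 430.0, 525 and 421 CPM, and 34.3%, 37.7% and 34.5% of them had a Slpi UMI after thinning. At the ratio of Slpi to S100a8 in granulocytes, the S100a8 counts of monocytes would go with 17.9, 28.2 and 14.8 CPM of Slpi, or 5.46%, 4.14% and 2.53% of its monocyte level. This estimate rests on S100a8 alone, which was lowest in p38KO monocytes, at 2957, 4645 and 1854 CPM. S100a9, Retnlg, Clec4d and G0s2 were also lowest in p38KO, whereas Csf3r and Cxcr2 were highest there. No estimate was made from those markers, so the percentages are not upper limits. Beside the S100a8 estimate stands the p38KO ratio of 0.26 without monocytes holding more granulocyte than monocyte marker counts. The part of granulocytes in the Slpi ratios was not tested further. Dendritic cells stood at 231, 387 and 299.6 CPM of Slpi. Granulocytes had 5, 2 and 5 counts of Timp1, and their Fn1 was 17.1, 11.6 and 30.3 CPM. Among monocytes, macrophages, dendritic cells, granulocytes and T cells, Vcan was above 20 CPM in monocytes alone, and Timp1 in monocytes and dendritic cells alone. Outside these classes, Vcan had 29, 1 and 0 counts in B cells of Veh, p38i and p38KO, or 121, 6.47 and 0 CPM. A cluster led by Epcam had 1 count of Timp1 in Veh and 12 in p38KO, or 24.0 and 108 CPM.

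**Figure D5:**
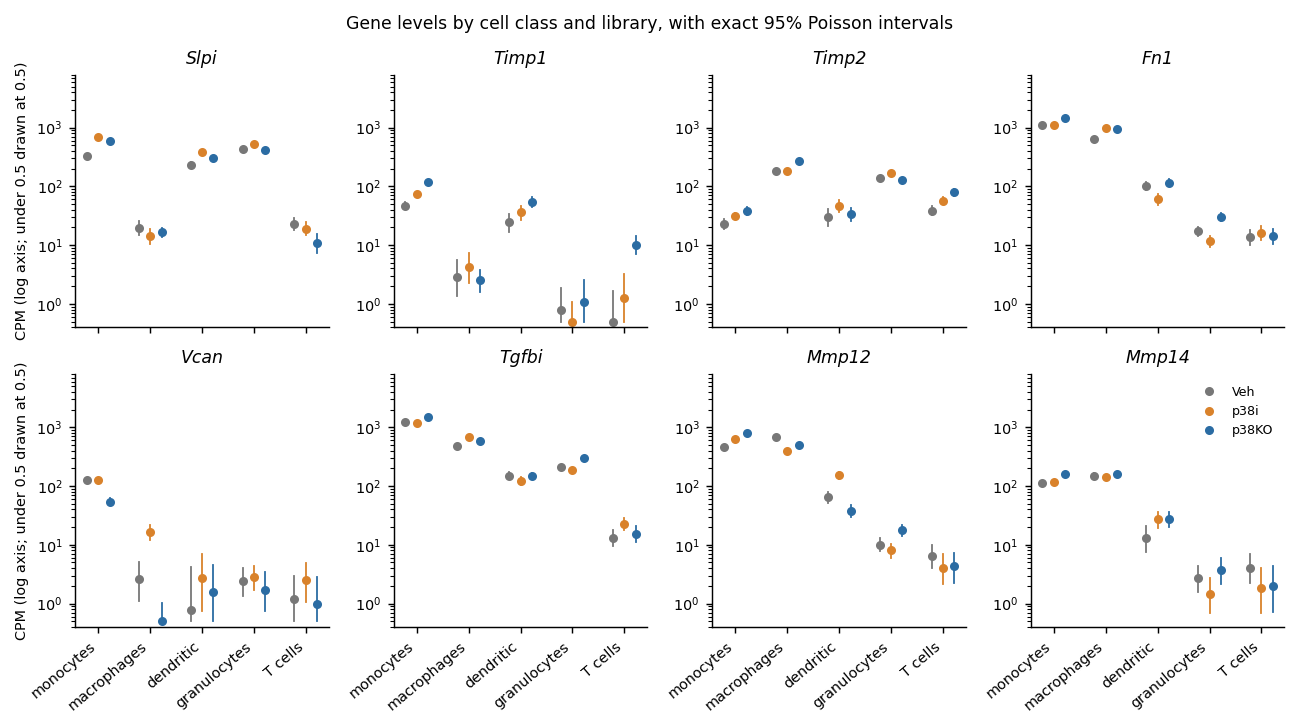
Each panel gives 1 gene's CPM (log y axis, with values under 0.5 drawn at 0.5) in 5 cell classes, with a point per library and exact 95% Poisson intervals. Slpi is high in monocytes, dendritic cells and granulocytes, and Vcan stands out in monocytes, where p38KO is the lowest library.

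Over 18 points, 6 cell classes in each of 3 libraries, the genes whose level on the scale log2(CPM + 10) was most like that of Timp1 among 6437 genes were Tppp3, Slk and Actr2, with Pearson r of 0.915, 0.904 and 0.897. The points share libraries and depth, so these values only describe likeness.

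Further genes of the same systems were counted from lists, to be read beside the 8.09% of all genes above 0.5 and 5.24% below -0.5 in p38i monocytes, and the 12.1% and 4.69% in p38KO monocytes. Of 29 further metalloproteinases, 12 had enough counts in monocytes: 1 was past 0.5 above Veh in p38i (Adamts10) and 2 in p38KO (Mmp13, a collagenase, and Adam19), and none were below. Mmp13 stood at 75.9, 94.5 and 114 CPM. Of 50 matrix proteins and matrix enzymes, 1 was above and 1 below in p38i of 16 with enough counts (Col4a1 and Thbs1), and 2 above and 1 below in p38KO of 15 (Spp1, Mfge8 and Thbs1). Thbs1, encoding thrombospondin 1, an adhesive glycoprotein, was lower in both groups at 604, 319 and 262 CPM, with log2 ratios of -0.92 (-0.99 to -0.84) and -1.202 (-1.305 to -1.101). Spp1, encoding osteopontin, stood at 1154, 1224 and 1876 CPM. The medians of the 2 lists were 0.057 and -0.0031 in p38i and -0.051 and -0.073 in p38KO.

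Of 33 further antiproteases in the tables, 6 of 18 with enough counts were above 0.5 in p38i and 2 below, and 3 of 17 were above and 5 below in p38KO. A pair of genes that neutrophils also express, the cystatin-like Stfa2 at 46.5, 73.2 and 17.3 CPM and Wfdc21 at 89.6, 169 and 48.3 CPM, were high in p38i and low in p38KO. The granulocyte markers S100a8, S100a9 and Retnlg had that order in these monocytes too, and Clec4d by a small margin, whereas Csf3r (105, 104 and 135 CPM) and Cxcr2 (44.8, 60.1 and 71.9 CPM) were highest in p38KO and G0s2 was highest in Veh (275, 204 and 191 CPM). Wfdc17, a small protein with the same kind of domain as Slpi, stood at 1256, 1852 and 1221 CPM. Among the neutrophil serine protease genes Elane, Ctsg and Prtn3, only Prtn3 had enough counts in monocytes, and it passed 0.5 in neither group. Of 30 matrix receptors, 1 was above and 2 below in p38i of 22 with enough counts (Itgb3, Itga9 and Cd36), and 2 above and 2 below in p38KO of 21 (Itga6, Stab1, Itga9 and Sdc1). Itga9, an integrin chain that binds fibronectin's extra domain and other matrix ligands, was lower in both, at 12.2, 6.601 and 7.77 CPM. Of 30 TGF-beta pathway genes, 22 had enough counts: none were above and 2 below in p38i (Tgfb3 and Smad3), and 4 were above and none below in p38KO (Tgfbr1, Ski, Skil and Inhba). Inhba, encoding a chain of activin, stood at 103, 134 and 179 CPM. The genes named here from the lists beside Thbs1 and Itga9 were named after their values were seen.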

How the data were processed

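Per the labels, paper and file headers, the authors aligned reads to the mouse genome (mm10) with Cell Ranger 6.0.0 and deposited filtered UMI counts per gene and cell barcode. The submitters' processing notes also name R 4.2.1 and Seurat 5. Here the deposited counts were read in Python 3.11.15 (scanpy 1.11.5, scipy 1.17.1). Cells were filtered at the paper's limits for UMIs, genes and mitochondrial counts. The paper's filter on gene variance and its removal of non-immune and rare cell types were not applied. Cells were clustered without 184 listed genes, the 8 among them (2000 variable genes, 30 components, 15 neighbours, Leiden resolution 1). The 24 clusters were named from marker lists where enough markers were found. Scrublet called 2 doublets per library, too few to rely on, so none were removed. Levels are CPM with exact Poisson intervals, ratios have exact conditional binomial intervals, and shares were taken after thinning to 1500 UMIs. These intervals cover counting error only. The libraries held 21675352, 25996832 and 25997636 UMIs. With 1 library per group, no test was made. The members, lists and tests were chosen with earlier results of these data known. Genes outside the 8 were named by rule, apart from those said to be named after their values were seen: past 0.5 the same way in both p38 groups with at least 100 counts, up to 3 per list and direction, and for Slpi, Timp1 and Fn1 the 3 genes with the most similar profile. Some of the results of this rule are not reported here. The calculation of ratios and their intervals was tested on simulated Poisson counts. Those lack the clumping of counts in few cells seen here, so that test does not cover it. The other steps were not tested in this way. Alternatives for counting, gating and clustering are given in the closing section. The RefSeq windows are those of GRCm38.p6, the build of mm10, and 7 of 8 genes matched.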

Additional observations from a re-analysis of the deposited data

Results flagged for a closer look

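Pairs were formed among monocytes, macrophages, granulocytes and dendritic cells, and among the 3 monocyte clusters. All of these pairs were searched for each of the 8 genes in both p38 groups. In 8 such pairs a gene was past a log2 ratio of 0.5 above Veh in 1 cell class or monocyte cluster and past it below Veh in another, with counting intervals on opposite sides of 0. How often other genes do so was not counted, so nothing is read from the number of pairs. Each class is 1 library per group, so none of these differences between ratios was tested.

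Slpi in p38KO had the widest gap of the 8. It was higher in Ace monocytes (2.88) and lower in Chil3 monocytes (-0.93), a difference of 3.81. In the Ace cluster 4 of 138 p38KO cells held 585 of the 807 counts. In the Chil3 cluster 2 of 118 Veh cells held 166 of the 476 counts, and no p38KO cell there reached 50 counts. Between Arg1 monocytes (0.87) and Chil3 monocytes the difference was 1.80, and 1 of 225 Arg1 cells held 469 of the 1332 counts in p38KO. The share of Chil3 cells with a Slpi UMI did not follow the level, so no order was read there.

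Mmp12, the macrophage elastase, had a ratio for p38i of 1.24 in dendritic cells and -0.77 in macrophages, a difference of 2.01. For p38KO it was 0.81 in monocytes and 0.80 in granulocytes against -0.77 in dendritic cells, a difference of 1.57 in both cases. Leaving out the highest cell of each library brought the monocyte value to 0.43. The granulocyte value rested on low levels, 10.1 CPM in Veh and 17.5 CPM in p38KO, beside 6.45 and 4.28 CPM in T cells.

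Vcan in p38i was higher in Ace monocytes (1.27) and lower in Chil3 monocytes (-0.52), a difference of 1.78. Fn1 in p38i was higher in macrophages (0.63), and lower in granulocytes (-0.56) and in dendritic cells (-0.74), differences of 1.19 and 1.36. The granulocyte levels of Fn1, 17.1 CPM in Veh and 11.6 CPM in p38i, were near the T-cell levels of 13.5 and 16.4 CPM.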

How the results depend on the processing

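At a log2 ratio of 1 in place of 0.5, the count of genes past it was 1 of 8 in p38i (Slpi) against 2, and 2 of 8 in p38KO (Timp1 higher and Vcan lower) against 6. The share of all genes past 1 was not counted, so nothing is read from the counts at that limit. Under the other alternatives the counts of genes past 0.5 were within 1.5 times. Those counts do not regard which genes were past it or in which direction. Without the Arg1 cluster, for example, Slpi in p38i was at 0.17 and Mmp12 at 1.26. The gate cell by cell, which took cells of any cluster, turned Timp1 in p38i to -0.11 and Mmp12 in p38KO to -1.04. Without a cell filter it gave -0.10 and -1.06. The cause was not tested. Over 15 alternatives Slpi ranged from 0.17 (without the Arg1 cluster) to 1.35 in p38i and from 0.26 to 1.18 in p38KO, Timp1 reached from -0.11 to 2.16 and from 0.064 to 1.70, and Vcan in p38KO from -2.29 to -1.05. Of 119 ratios per group, 81 in p38i and 75 in p38KO stayed within the 95% counting interval of the reported value. Scaling by the median ratio of genes shifted all ratios by -0.027 and -0.060. Leaving out the highest cell, or monocytes rich in granulocyte markers, was chosen after seeing the data. Timp2 had no value with T-cell CPM subtracted. No paired analysis was possible because each group is 1 library. Timp1, Timp2 and Vcan in p38KO rest on few counts, 151 to 476 in that library.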

Other observations

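A cluster led by Epcam, Krt8 and Krt18 held 8 cells, 4 in Veh and 4 in p38KO, in libraries sorted for CD45. The Veh cells held 41685 UMIs and the p38KO cells 111148. Slpi had 38 counts in the Veh cells and 264 in the p38KO cells, or 912 and 2375 CPM. Fn1 had 1 and 250 counts, or 24.0 and 2249 CPM. Mapk14 had 0 and 2 counts, too few to compare.

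In Arg1 monocytes after thinning to 1500 UMIs, Slpi was seen in 15.6% of 64 cells with a Mmp12 UMI and 24.6% of 248 without one in Veh, in 24.8% of 137 and 32.9% of 431 in p38i, and in 9.76% of 41 and 27.2% of 184 in p38KO. Beside Timp1, Slpi was in 47.1% of 17 cells with it and 21.4% of 295 without in Veh, in 33.3% of 33 and 30.8% of 535 in p38i, and in 40.9% of 22 and 22.2% of 203 in p38KO. Fn1 was in 55.1% of cells with Tgfbi and 52.04% without in Veh, in 53.02% and 56.5% in p38i, and in 69.3% and 67.4% in p38KO. The exact 95% binomial intervals overlapped in each of these pairs, and no difference was tested.

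In dendritic cells Timp1 stood at 24.4, 35.9 and 53.6 CPM in Veh, p38i and p38KO, with a log2 ratio of 0.55 (-0.10 to 1.24) for p38i and 1.13 (0.55 to 1.75) for p38KO. The CPM in monocytes had the same order, while the p38i interval in dendritic cells held 0. Slpi there had log2 ratios of 0.74 (0.54 to 0.95) and 0.37 (0.17 to 0.58).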
